A study of Mus musculus with 12 samples.

Results

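Collagen chains are the subunits of the fibrils, networks and membrane proteins that hold tissues together, and every gene whose symbol has the form Col, a number, a and a second number was taken here. This rule found 44 of the 32285 genes in the count tables. By the type of collagen they build, 11 encode fibrillar chains, 6 basement membrane chains of type IV, 6 beaded filament chains of type VI, 9 fibril-associated (FACIT) chains, 4 transmembrane chains, 3 short chain network chains, 2 multiplexins and 3 anchoring or other chains. The livers came from C57BL/6 pups, for which the labels name no altered allele, killed on postnatal day 11. The 6 anemia pups had 20 µL of blood per g of body weight drawn from the facial vein at each of 5 phlebotomies between postnatal days 2 and 10, which the protocol describes as lowering the hematocrit from 45-60% to 20-24%. The 6 control pups had a daily needle stick and no blood draw. Each liver was dissociated with enzymes, its cells were pelleted at low speed, and 1 droplet single-cell library (10x Genomics, 3′ end) was made per pup.

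A collagen molecule is a triple helix of 3 chains that is folded and modified in the endoplasmic reticulum, secreted and then assembled outside the cell. Fibrillar types I, III and V form the scaffold of the portal tracts and of scars, type IV forms the sheet under endothelium, smooth muscle and epithelium, type VI forms a beaded microfilament next to cells, and FACIT chains such as types XII and XIV bind to the surface of fibrils. In liver, portal fibroblasts and hepatic stellate cells, the vitamin A storing pericytes of the sinusoid, are known as the main makers of interstitial collagen, sinusoidal endothelial cells rest on a thin type IV matrix, and hepatocytes make the multiplexin type XVIII.

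Of 207537 barcodes, 206146 were kept, with 14184 to 21186 cells and 45751640 to 74344118 unique molecular identifiers (UMIs) per library. Of 202419 distinct barcode sequences, 5031 occurred in more than 1 library. Classes were named from marker genes that hold no collagen, and the chains were left out of the clustering. Levels below are CPM, the UMIs of a chain among 1000000 UMIs of a class in a mouse, given as mean ± SD over 12 mice unless a group is named. A 3′ UMI count is not divided by gene length and the sources used here do not say whether intronic reads were counted, so levels are compared within a chain across classes. The stellate-like class was the class of most doubt. It held 2833 cells in 2 clusters, both led by known stellate genes such as Colec11 and Angptl6. Cluster 37 held 1497 of these cells, its cells had a median UMI count of 7.03 times that of their libraries, and 81.9% of them were called as doublets. Cluster 38 held the other 1336 cells, of which 12.9% were called. Anemia mice 2 and 3 had only 40 and 28 stellate-like cells. Doublets were kept. With called doublets left out, Col6a1, Col6a2, Col1a1, Col5a3 and Col25a1 in stellate-like, Col18a1 in smooth muscle-like, Col6a1 in mesothelial-like cells and Col25a1 in whole libraries were no longer called, and Col8a1 in stellate-like, Col13a1 in neutrophil-like and hepatocyte-like cells and Col2a1 and Col4a6 in endothelial-like cells had too few UMIs to be tested. That setting added calls of Col4a2, Col23a1 and Col7a1 in endothelial-like cells (18.9% of all genes called), Col18a1 in B-like cells (2.27%), Col5a3 in pre-B-like cells (2.51%) and Col11a2 in whole libraries (5.75%). Sex is not in the labels. Y-linked genes were high in 2 control and 4 anemia libraries, and with their level as a covariate the calls of Col5a3 in stellate-like and B-like cells, Col6a1 in mesothelial-like cells, Col13a1 in hepatocyte-like cells and Col25a1 in whole libraries were lost.

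Fibroblast-like cells, which carried Mfap4, Clec3b and Mfap5, held the highest levels of most fibrillar chains. Col3a1, the type III chain, stood at 13526 ± 1646 CPM in these cells, at 4594 ± 895 in mesothelial-like cells, at 3625 ± 859 in smooth muscle-like cells and at 1527 ± 336 in stellate-like cells. Below these 4 classes it was at 170.1 ± 120 CPM in cholangiocyte-like cells, with a range of 22.1 to 347 over mice, and at 15.6 ± 4.39 or less in the other classes. The mesothelial-like and smooth muscle-like levels lay within about 1 SD of each other, whereas the steps from fibroblast-like to mesothelial-like and from smooth muscle-like to stellate-like cells were wider than the SDs. Col1a1 and Col1a2, the type I chains, gave a similar order. Col1a1 stood at 11279 ± 1451 CPM in fibroblast-like, 3309 ± 936 in smooth muscle-like, 2988 ± 650 in mesothelial-like and 435 ± 133 in stellate-like cells. Col1a2 stood at 10302 ± 1177, 3053 ± 750, 2789 ± 487 and 708 ± 106 CPM in the same classes.

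Type V chains, which are built into type I fibrils, were at 659 ± 100 CPM for Col5a1 and 1102 ± 145 CPM for Col5a2 in fibroblast-like cells. In stellate-like cells Col5a1 stood at 330 ± 61.8 CPM and Col5a2 at 239 ± 35.5 CPM. Col24a1, a minor fibrillar chain, was highest in stellate-like cells at 45.5 ± 15.6 CPM, against 13.4 ± 5.63 in fibroblast-like cells and at most 0.814 in any other class. Col27a1, another minor fibrillar chain, was spread widely, with 105 ± 26.4 CPM in fibroblast-like, 70.7 ± 14.8 in cholangiocyte-like, 60.9 ± 16.9 in endothelial-like and 55.6 ± 15.7 in stellate-like cells. The last 3 levels overlapped within their SDs.

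The basement membrane chains fell into a broad pair and a restricted group. Col4a1 stood at 1659 ± 365 CPM in smooth muscle-like, 1014 ± 144 in stellate-like, 1008 ± 209 in fibroblast-like and 802 ± 149 in endothelial-like cells. Its head-to-head neighbour on chromosome 8, Col4a2, followed with 822 ± 186, 528 ± 67.9, 478 ± 80.2 and 404 ± 54.7 CPM. Beyond smooth muscle-like cells these neighbours in the order did not differ beyond their SDs. Col4a3, Col4a4, Col4a5 and Col4a6, which form the other type IV networks, were highest in mesothelial-like cells, the lining cells of the liver surface, at 135 ± 42.4, 351 ± 87.4, 238 ± 32.1 and 127 ± 25.7 CPM. Col4a6 was equally high in smooth muscle-like cells, at 127 ± 41.8 CPM.

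**Figure D1:**
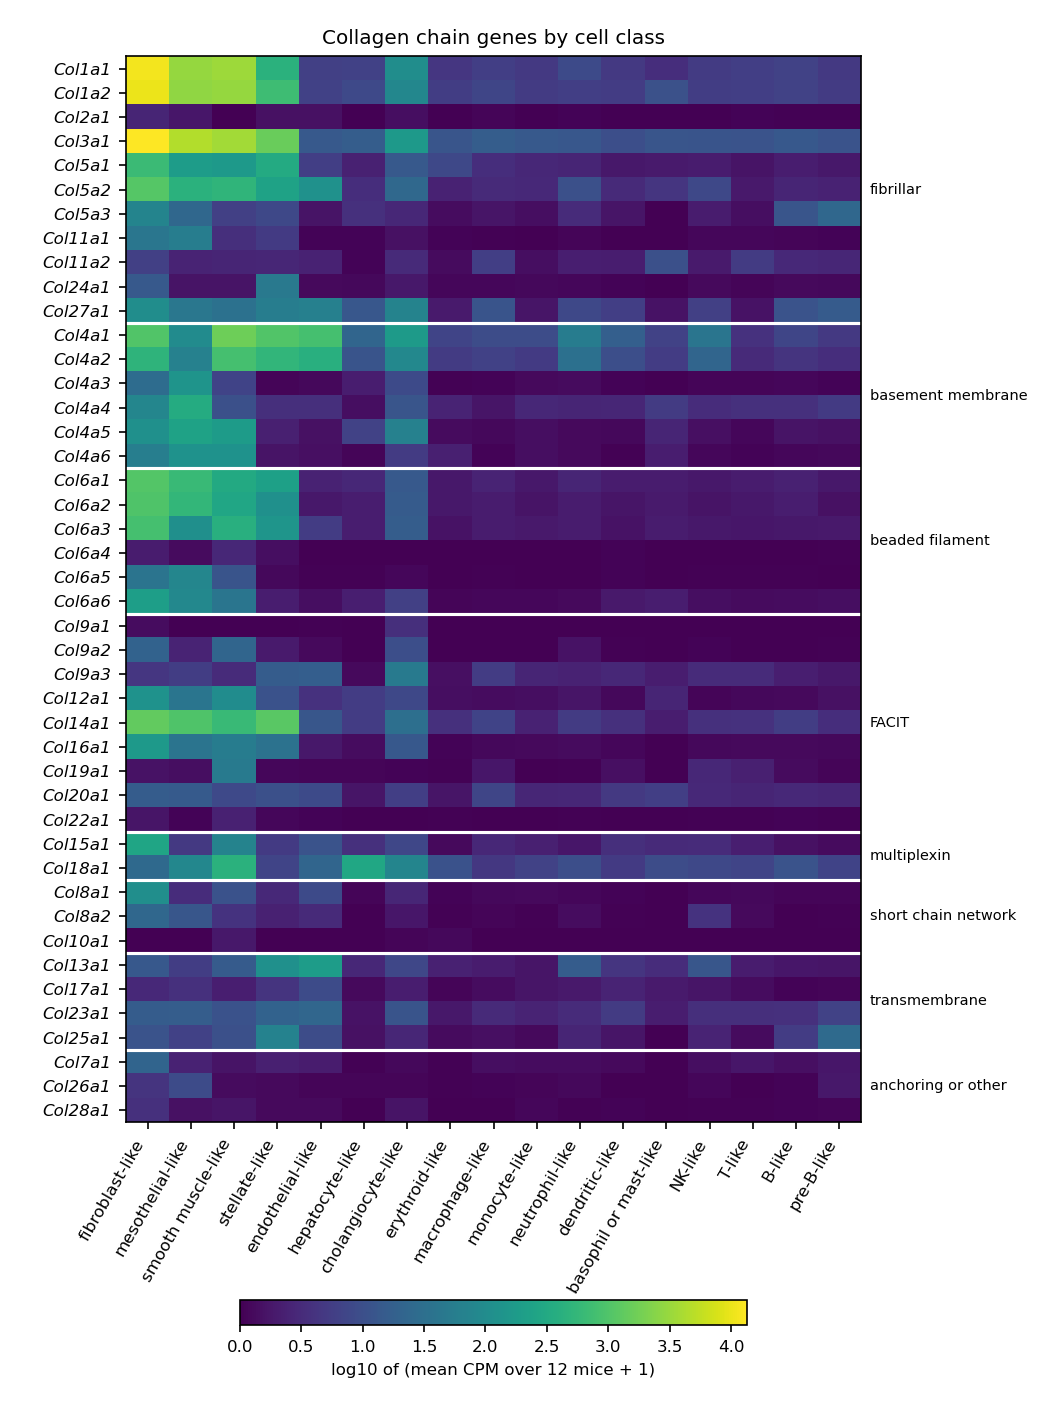
Colour gives log10 of the mean CPM over 12 mice plus 1 for each of the 44 chains (vertical axis, grouped by family) in the 17 named classes (horizontal axis). Summed over the family, fibrillar chains are highest in the fibroblast-like, mesothelial-like, smooth muscle-like and stellate-like classes, though not every single chain is. Col18a1 stands out in hepatocyte-like cells at 291 ± 112 CPM.

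Col6a1, Col6a2 and Col6a3 stood at 1065 ± 219, 967 ± 203 and 823 ± 146 CPM in fibroblast-like cells and at 220 ± 78.9, 118 ± 36.5 and 144 ± 28.2 CPM in stellate-like cells. Col14a1, a FACIT chain, differed from them in that stellate-like cells, at 1197 ± 265 CPM, came within 1 SD of fibroblast-like cells, at 1379 ± 148 CPM. Of the transmembrane chains, Col13a1 was highest in endothelial-like cells at 193 ± 74.5 CPM, followed by stellate-like cells at 120 ± 43.6 CPM. Col25a1 was highest in stellate-like cells at 67.7 ± 19.5 CPM. The multiplexin Col18a1, whose end fragment is endostatin, was highest in smooth muscle-like and hepatocyte-like cells, whose order differed between groups. Controls had 252 ± 91.8 CPM in smooth muscle-like and 393 ± 38.5 CPM in hepatocyte-like cells, and anemia had 626 ± 176 and 189 ± 34.0 CPM. Summed over all chains, the fibrillar family made up 84.0% of collagen UMIs in fibroblast-like cells and 48.8% in stellate-like cells. Type IV made up 69.3% in endothelial-like cells and the multiplexins 73.6% in hepatocyte-like cells.

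Blood cell classes held little collagen. In NK-like cells the 3 leading chains were Col4a1 at 38.6 ± 17.8, Col4a2 at 21.6 ± 9.16 and Col13a1 at 11.7 ± 7.15 CPM, and in neutrophil-like cells they were Col4a1 at 52.4 ± 18.5, Col4a2 at 33.0 ± 8.26 and Col13a1 at 14.7 ± 8.46 CPM, which are also the leading chains of endothelial-like cells. In T-like cells Col3a1 led at 10.4 ± 4.42 CPM, before Col18a1 at 6.11 ± 3.63 and Col1a2 at 4.81 ± 2.68. Macrophage-like cells held Col3a1 at 15.6 ± 4.39, Col27a1 at 11.0 ± 6.81 and Col4a1 at 7.96 ± 1.47 CPM. Col3a1 lay between 8.82 and 15.6 CPM in 12 of the 17 classes, and the part of free RNA in these levels was not tested. A UMI of Col3a1 was found in 1.41% of control and 1.67% of anemic erythroid-like cells, at median depths of 1000.5 and 1373 UMIs, and in 2.51% and 2.50% of T-like cells, at 1835 and 2187 UMIs. Monocyte-like, dendritic-like and basophil or mast-like cells led with Col3a1 at 13 ± 4.88, Col4a1 at 16.7 ± 5.04 and Col3a1 at 11.1 ± 15.1 CPM.

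In pre-B-like cells Col25a1 stood at 25.7 ± 5.62 CPM and Col5a3, a type V chain, at 23.4 ± 5.58 CPM, both above Col27a1 at 14.5 ± 3.96 and Col3a1 at 10.3 ± 4.20 CPM. The ratio of Col25a1 to Col3a1 UMIs was 2.47 in pre-B-like cells, 0.354 in B-like cells, 0.177 in NK-like cells and 0.031 in T-like cells, and that of Col5a3 to Col3a1 was 2.35, 0.911, 0.117 and 0.0388. Col5a3 was detected in 6.18% of control and 5.03% of anemic pre-B-like cells but in 0.121% and 0.0745% of T-like cells at similar depth. In B-like cells Col3a1 led at 12.8 ± 5.55 CPM, before Col5a3 at 11.5 ± 3.41 and Col18a1 at 10.4 ± 4.55.

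Stellate-like cells made up a smaller share of the cells in anemia, and the largest source of Col14a1 and Col5a1 UMIs differed on average between the groups. Stellate-like cells were 2.07 ± 0.698% of kept cells in controls and 0.786 ± 0.496% in anemia (n = 6 each). The control values were 1.47%, 1.10%, 2.18%, 3.08%, 2.33% and 2.29%, and the anemia values 1.29%, 0.224%, 0.132%, 1.17%, 0.822% and 1.08%. The ranges overlapped through control 2, and the difference passed the exact two-sided Mann-Whitney test (p = 0.00866, Benjamini-Hochberg adjusted over 17 classes 0.0184). In the same test the B-like, pre-B-like, basophil or mast-like, dendritic-like, endothelial-like and macrophage-like shares also fell (adjusted p = 0.0184 each). The NK-like share fell at an adjusted p of 0.0491. The share of fibroblast-like cells was 1.23 ± 0.553% in controls and 1.43 ± 0.822% in anemia (exact p = 0.699), that of smooth muscle-like cells 0.389% and 0.491% (exact p = 0.310), and that of mesothelial-like cells 0.419% and 0.472% (exact p = 0.699). Erythroid-like cells, which enter the denominator, rose from 6.94% to 21.7% (exact p = 0.00866). With the cells that are not erythroid-like as the denominator, the stellate-like share was 2.22% in controls and 1.03% in anemia (exact p = 0.026). When fibroblast-like, smooth muscle-like and mesothelial-like cells were added to the stellate-like class, the shares of 4.11% and 3.17% did not pass (exact p = 0.485). These are shares of recovered cells, and losses in dissociation were not measured.

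**Figure D2:**
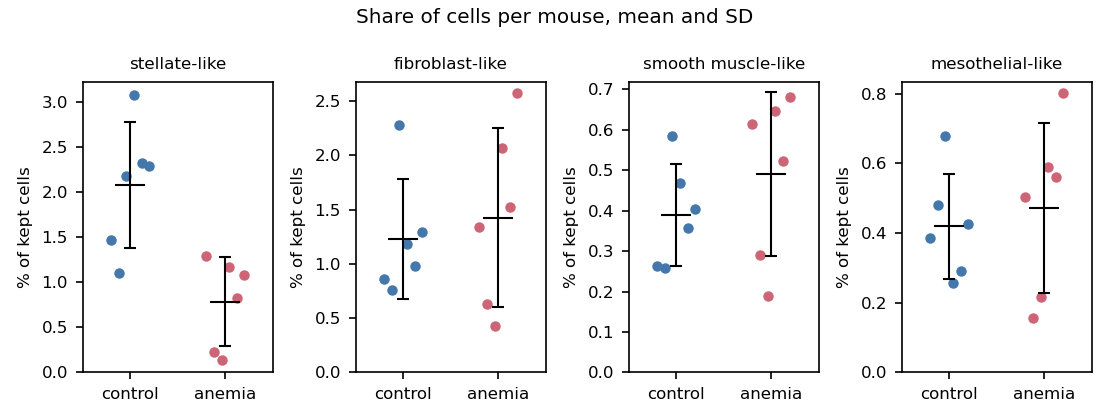
Each point is 1 mouse's share of kept cells (%) in the stellate-like, fibroblast-like, smooth muscle-like and mesothelial-like classes, with group mean and SD. The stellate-like values of the anemia pups lie between 0.132% and 1.29%, those of the controls between 1.10% and 3.08%.

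The share of Col3a1 UMIs that came from stellate-like cells was 21.9 ± 6.55% in controls and 6.55 ± 1.64% in anemia, and that from fibroblast-like cells 54.8 ± 7.56% and 69.7 ± 4.34%. For Col14a1 the stellate-like part was 58.5 ± 7.98% and 29.0 ± 8.49%, and the fibroblast-like part 20.4 ± 4.61% and 39.2 ± 3.30%. For Col5a1 the stellate-like part was 51.8 ± 9.27% and 21.6 ± 7.70%, and the fibroblast-like part 29.0 ± 8.63% and 52.4 ± 6.42%. On average the largest source of Col14a1 and Col5a1 was thus the stellate-like class in controls and the fibroblast-like class in anemia, while for Col3a1 it was the fibroblast-like class in both groups. For Col24a1 stellate-like cells stayed the largest source, with 79.7 ± 8.19% and 54.8 ± 15.6%. Col4a1 came mainly from endothelial-like cells in both groups (54.9 ± 5.35% and 55.7 ± 3.21%), as did Col13a1 (73.2 ± 2.10% and 74.8 ± 6.66%). For Col18a1 hepatocyte-like cells gave 54.6 ± 4.4% in controls and 31.7 ± 7.84% in anemia, and smooth muscle-like cells 5.74 ± 2.26% and 22.7 ± 6.77%. These shares mix cell number, UMIs per cell and level, and were not tested.

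Within stellate-like cells, Col12a1, Col6a1, Col6a2, Col1a1 and Col5a3 were higher in anemia, and Col25a1 and Col8a1 were lower. Of the 44 chains, 27 had on average 5 or more UMIs per mouse and were tested, and 7 were called in edgeR's quasi-likelihood test at a Benjamini-Hochberg adjusted p under 0.05 over all genes tested, 5 higher and 2 lower. Of all 13651 genes tested in this class 6.62% were called, 3.77% higher and 2.85% lower. The median log2 fold change (anemia over control) of the 27 chains was -0.15, that of all genes -0.01. The summed level of all chains was 6975 ± 733 CPM in controls and 6777 ± 998 CPM in anemia. Without TMM scaling factors 8 chains were called, 4 higher and 4 lower, where 7.77% of all genes were called, 2.78% higher and 5.0% lower. With called doublets left out, 1 chain, Col12a1, was called, where 4.61% of all genes were, and in cluster 38 alone 3 were called, Col12a1, Col6a1 and Col6a2, where 2.18% were.

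Col12a1, a FACIT chain of tissues under load, ranged from 2.8 to 6.69 CPM in controls (median 5.09) and from 7.36 to 25.3 CPM in anemia (median 14.2). The groups did not overlap, as in 3.93% of all genes tested, and the log2 fold change was 1.68 (SE 0.247, adjusted p = 0.00027). The lowest anemia value came from anemia 3, with 28 stellate-like cells. In that mouse the lowest nonzero value of any chain was 2.45 CPM, so the lack of overlap rests on few UMIs. The call of Col12a1 held in all 27 alternatives that were run for it. The Col12a1 level stayed low beside the 128 ± 29.9 CPM of fibroblast-like cells.

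Col6a1 ranged from 145 to 217 CPM in controls (median 155) and from 135 to 332 CPM in anemia (median 300). Col6a2, its partner in the type VI molecule, ranged from 75.3 to 108 CPM (median 89.0) and from 105 to 177 CPM (median 154). In both chains 5 of 6 anemia mice lay above all controls, and anemia 3, with the fewest stellate-like cells, was the mouse that did not. The log2 fold changes were 0.77 (SE 0.158, adjusted p = 0.00545) and 0.76 (SE 0.118, adjusted p = 0.000459). With called doublets left out, Col6a1 in stellate-like cells gave 0.51 (adjusted p = 0.297) and Col6a2 in stellate-like cells 0.38 (adjusted p = 0.429). With anemia 3 also left out, Col6a1 was called again and Col6a2 was not (0.51, adjusted p = 0.157). Col6a3, the third chain of the molecule, did not pass, at 155 CPM in controls and 133 CPM in anemia.

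Col1a1 ranged from 265 to 439 CPM in controls (median 341) and from 395 to 737 CPM in anemia (median 513), with 4 of 6 anemia mice above all controls. Its log2 fold change was 0.61 (SE 0.146, adjusted p = 0.0155). With called doublets left out, Col1a1 in stellate-like cells gave 0.23 (adjusted p = 0.687). Col1a2, its partner in the type I molecule, was at 746 CPM in controls and 670 CPM in anemia (log2 fold change -0.15, SE 0.117, adjusted p = 0.532), and Col3a1 at 1673 and 1380 CPM (-0.27, SE 0.150, adjusted p = 0.337). Of the type I chains 1 therefore passed the test. Col5a3 ranged from 3.16 to 5.81 CPM in controls and from 5.52 to 14 CPM in anemia (log2 fold change 0.95, SE 0.272, adjusted p = 0.0416). That call was lost in 18 of 27 alternatives for Col5a3 in stellate-like cells, among them the omission of control 1, 2, 3, 4 or 6 or of anemia 3, 5 or 6, with adjusted p up to 0.142 in these.

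Col25a1, the transmembrane chain that marked stellate-like cells, ranged from 72.7 to 99.6 CPM in controls (median 79.5) and from 37.5 to 74.5 CPM in anemia (median 48.4). In anemia 5 of 6 mice lay below all controls, and the log2 fold change was -0.63 (SE 0.145, adjusted p = 0.0127). Col25a1 in stellate-like cells gave -0.86 (adjusted p = 0.0743) with called doublets left out and -0.38 (adjusted p = 0.499) in cluster 38 alone. Col8a1, a short chain of vascular matrix, ranged from 1.44 to 7.92 CPM in controls and from 0 to 1.91 CPM in anemia, where 3 mice had no UMI. Its log2 fold change was -2.53 (SE 0.673, adjusted p = 0.0294), and leaving out anemia 1, 5 or 6 raised the adjusted p of Col8a1 in stellate-like cells to 0.0712, 0.0713 or 0.0675. Chains that also define the class by level did not pass in edgeR, among them Col14a1 (1354 and 1040 CPM, log2 fold change -0.37, adjusted p = 0.173), Col4a1 (920 and 1108 CPM, 0.27, adjusted p = 0.126), Col5a1 (354 and 307 CPM, -0.18, adjusted p = 0.530) and Col24a1 (55.0 and 36.1 CPM, -0.47, adjusted p = 0.137). Limma voom, which called 10 chains and 8.8% of all genes here, called Col14a1 and Col24a1 lower, and Col24a1 was also called with the replicate block and without anemia 6.

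**Figure D3:**
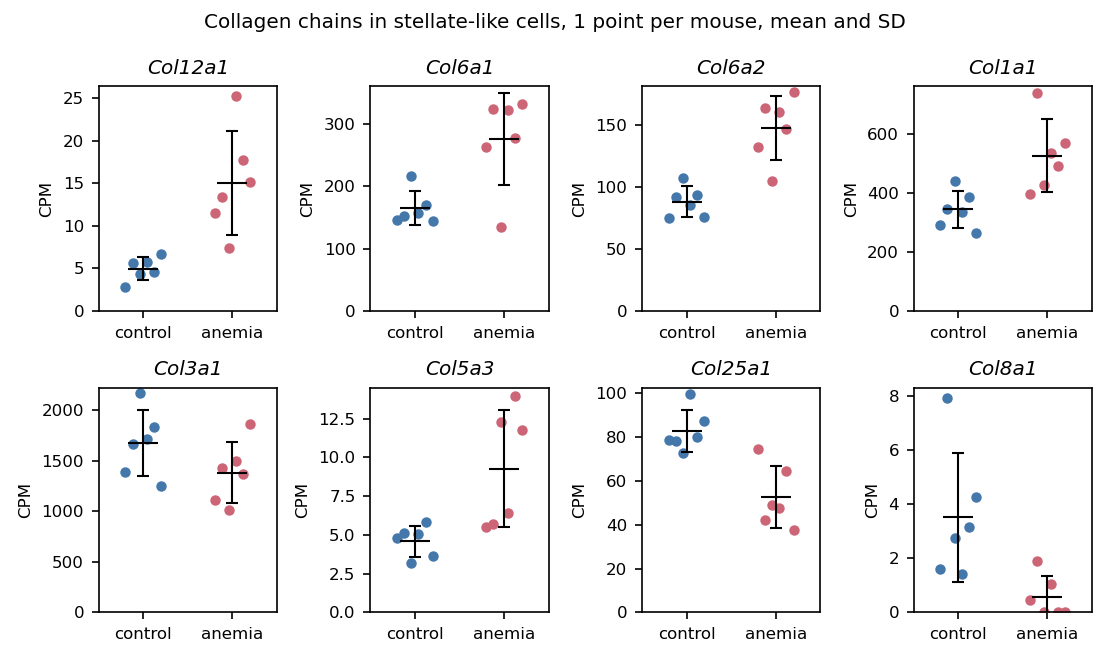
Each point is 1 mouse's level (CPM) in stellate-like cells, with group mean and SD, for the 7 chains called there and for Col3a1, which was not. All 6 anemia mice lie above the controls for Col12a1, and anemia 3 is the low point of Col6a1 at 135 CPM.

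Other markers moved in the same stellate-like sums. The summed stellate markers ranged from 5754 to 7841 CPM in controls and from 2426 to 6726 CPM in anemia, with 1 of 12 called higher and 2 lower. Summed endothelial markers ranged from 5095 to 6676 CPM and from 5612 to 8019 CPM, with 0 of 11 called, and summed smooth muscle markers from 270 to 494 CPM and from 214 to 1018 CPM, with 0 of 5 tested called. Endothelial markers were thus about as high as stellate markers in this class. Fibroblast markers ranged from 126 to 207 CPM and from 136 to 221 CPM (1 of 6 tested higher, 1 lower), and mesothelial markers from 6.72 to 11.2 CPM and from 21.8 to 54.0 CPM (1 of 2 tested higher). Erythroid markers ranged from 298 to 1217 CPM and from 399 to 2627 CPM (4 of 5 tested higher). Their part in the chain results was not tested.

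The promoters of Col6a1 and Col6a2, which rose together, and of Col18a1, which moved in opposite directions between classes as described further on, are shown because these 3 chains are also neighbours on chromosome 10 (GRCm38). Col6a2 lies at chr10:76595762-76623630, Col6a1 at chr10:76708792-76726168 and Col18a1 at chr10:77052178-77166548, all on the minus strand. The sequences are the RefSeq windows (GRCm38.p6) upstream of the start, 5′ to 3′ on the minus strand and trimmed to bases outside GENCODE M21 exons. Capitals mark the letters CCAAT, the core of the CCAAT box, and GGGCGG, the core of the GC box, on either strand.
Col6a1 (chr10:76726169-76726294): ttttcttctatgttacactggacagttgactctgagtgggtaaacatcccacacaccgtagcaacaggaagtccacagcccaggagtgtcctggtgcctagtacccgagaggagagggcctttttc
Col6a2 (chr10:76623631-76623880): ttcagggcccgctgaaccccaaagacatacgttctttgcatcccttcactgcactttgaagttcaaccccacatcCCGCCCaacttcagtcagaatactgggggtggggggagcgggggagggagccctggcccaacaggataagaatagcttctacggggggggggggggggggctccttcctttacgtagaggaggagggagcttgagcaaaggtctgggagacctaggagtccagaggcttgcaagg
Col18a1 (chr10:77166549-77166780): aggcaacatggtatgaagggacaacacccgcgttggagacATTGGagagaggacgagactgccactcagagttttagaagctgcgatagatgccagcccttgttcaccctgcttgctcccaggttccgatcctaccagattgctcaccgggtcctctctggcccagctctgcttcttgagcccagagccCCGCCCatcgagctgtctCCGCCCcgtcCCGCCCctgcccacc
The Col6a2 window held 1 GGGCGG and the Col18a1 window 3, with 1 CCAAT, while the 126 bases of Col6a1 held no letters of either motif. The Col6a1 window lacks the bases nearest its RefSeq start at 76726044, which were trimmed. It therefore cannot be set against the shares that follow, which use all 250 bases. Of 32851 RefSeq promoters, 32.7% held GGGCGG and 33.8% held CCAAT in the 250 bases before the start. Of the 38 windows found for 35 of the 44 chains, 22 held GGGCGG and 13 held CCAAT. The letters TATAAA stood in 12.4% of all promoters and 5 chain windows, and the hypoxia element letters ACGTG in 16.6% and 5 and GCGTG in 28.2% and 8. The 3 printed windows held none of these last 3 motifs. Which start site of a gene each class used was not tested.

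In endothelial-like cells Col5a2, Col4a1 and Col18a1 were higher and 8 chains lower in anemia. Of 31 chains tested, 11 were called, where 18.4% of all 16669 genes were called in this class, 7.93% higher and 10.5% lower. The median log2 fold change was -0.04 for the chains and 0.01 for all genes. By family, 3 of 5 FACIT chains and 2 of 4 transmembrane chains tested fell, none rose, and the 3 type VI chains tested did not pass. The summed level of all chains ranged from 1593 to 1795 CPM in controls and from 1680 to 1976 CPM in anemia. Without TMM factors 12 chains were called, 2 higher and 10 lower, where 22.5% of all genes were called, 4.97% higher and 17.5% lower.

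Col5a2, a type V chain, ranged from 80.6 to 101 CPM in controls (median 95.4) and from 115 to 224 CPM in anemia (median 146). The groups did not overlap, as in 8.53% of all genes tested, and the log2 fold change was 0.73 (SE 0.138, adjusted p = 0.00257). Col4a1 ranged from 656 to 798 CPM (median 678) and from 706 to 1067 CPM (median 951), with a log2 fold change of 0.37 (SE 0.104, adjusted p = 0.0228). Anemia 1 and 4 lay within the controls. For Col4a1 in endothelial-like cells the adjusted p was 0.0511 without control 5, 0.0738 without TMM factors and 0.0753 without anemia 2 and 3. Its neighbour Col4a2 stood at 369 and 439 CPM (log2 fold change 0.25, SE 0.0855, adjusted p = 0.0566). Col18a1 ranged from 11.5 to 24.6 CPM in controls and from 17.0 to 34.5 CPM in anemia (log2 fold change 0.67, SE 0.179, adjusted p = 0.0184). When the chains were put back among the clustering genes, Col18a1 in endothelial-like cells turned to -0.19 (adjusted p = 0.456). In that run a cluster of 2042 cells with Thsd7a, Mecom and Gja5 among its leading genes was unnamed and so outside the class. Its part in this turn was not tested.

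Col13a1, a transmembrane chain found at cell junctions, was the largest fall by level. It ranged from 217 to 284 CPM in controls (median 256) and from 45.0 to 205 CPM in anemia (median 153), with no overlap and its lowest values in anemia 2 and 3. Its log2 fold change was -0.91 (SE 0.253, adjusted p = 0.0224), and without control 4 Col13a1 in endothelial-like cells gave -0.88 (adjusted p = 0.0505). Col17a1, a second transmembrane chain known from epithelial hemidesmosomes, ranged from 8.15 to 13.3 CPM in controls and from 2.78 to 11.3 CPM in anemia (log2 fold change -1.13, SE 0.278, adjusted p = 0.0119). Col9a3, a chain of the cartilage FACIT type IX, fell from 20.1 ± 3.54 to 11.7 ± 5.68 CPM, a call lost in 6 of 24 alternatives for Col9a3 in endothelial-like cells, those without control 1, 2, 4 or 6 or anemia 1 or 4 (adjusted p up to 0.0691). Col20a1 fell from 9.34 ± 1.80 to 5.92 ± 1.43 CPM. Col12a1, which rose in stellate-like cells, fell here from 3.78 ± 0.683 to 2.12 ± 0.653 CPM (log2 fold change -0.86, SE 0.208, adjusted p = 0.0108). Col8a2, Col2a1 and Col4a6 fell without overlap at low levels, from 2.94 to 1.28, from 0.773 to 0.253 and from 0.749 to 0.173 CPM, and at clustering resolution 1 Col4a6 in endothelial-like cells lost its call (adjusted p = 0.116).

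**Figure D4:**
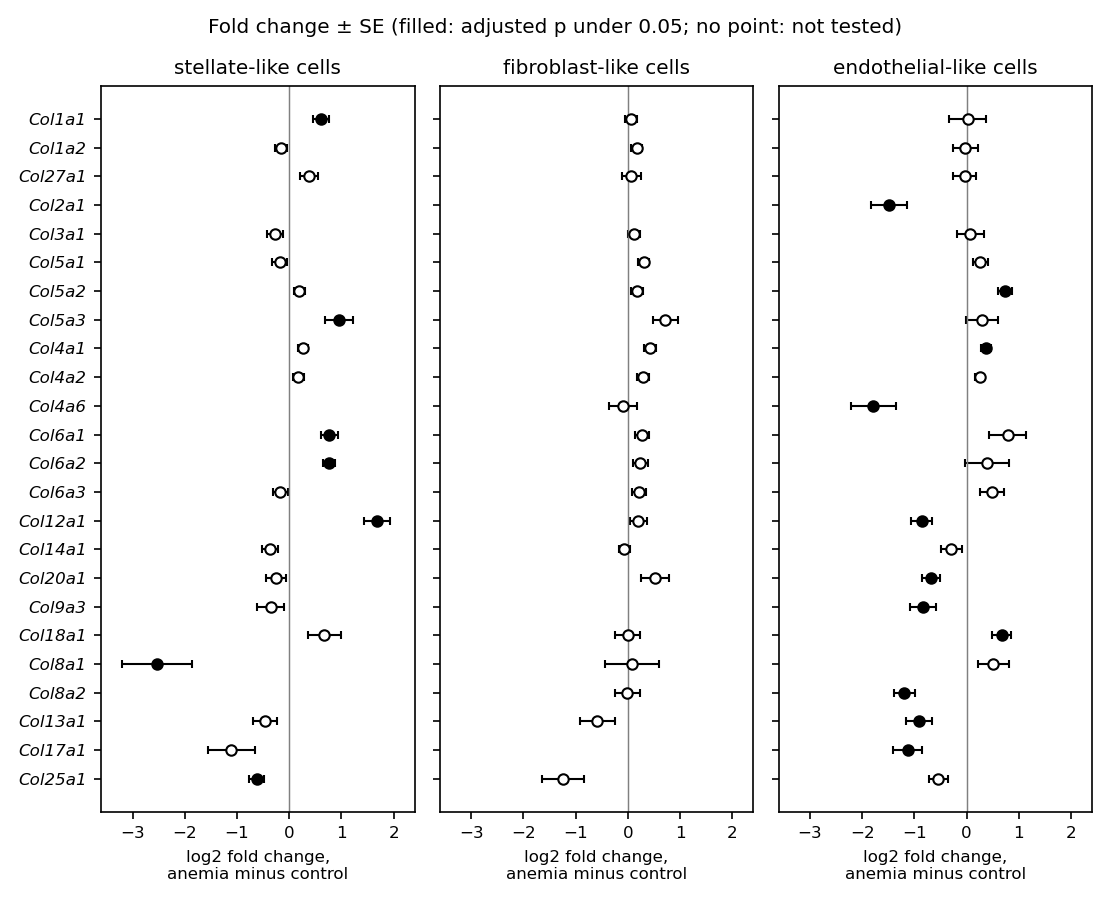
Log2 fold change (anemia over control, horizontal axis) with SE bars in stellate-like, fibroblast-like and endothelial-like cells for the chains named there, filled where called and absent where not tested. Col12a1 lies at 1.68 in stellate-like and -0.86 in endothelial-like cells, and no fibroblast-like point is filled.

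The make-up of the endothelial-like class moved with these levels. Its cluster 3 held 49.2% of the class in controls and 21.1% in anemia, and its cluster 6 held 23.8% and 44.8%. Cluster 25, with Thsd7a, Mecom, Gja5 and Vwf among its leading genes, held 8.32% and 14.7%. Summed hepatocyte markers in the class ranged from 1439 to 2638 CPM in controls and from 340 to 1609 CPM in anemia, and erythroid markers from 322 to 833 CPM and from 1201 to 2572 CPM, with 5 of 7 tested called higher. Summed endothelial markers ranged from 10238 to 11392 CPM and from 8949 to 11610 CPM, with 0 of 11 called. What these shifts contribute to the chain results was not tested. The endothelial-like share of kept cells fell from 15.2 ± 1.63% to 9.81 ± 4.06% (exact Mann-Whitney p = 0.00433). Anemia 2 and 3 stood apart at 4.89% and 4.53%, against 10.9% to 13.7% in the other anemia mice. They also held 23.5% and 8.94% monocyte-like cells, against 1.43% to 2.55% in the others. Their hepatocyte-like shares were 3.91% and 3.66%, against 9.93% to 15.4%.

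The responses of stellate-like and endothelial-like cells were set against each other in 1 model with the mouse as a block. Of 30 chains tested, 4 differed, where 3.85% of all 15773 genes did. Col12a1 differed by 2.51 on the log2 scale (stellate-like minus endothelial-like, SE 0.306, adjusted p = 8.25e-06), since it rose in the first and fell in the second. Col5a2 differed by -0.61 (SE 0.0981, adjusted p = 0.000298), Col6a3 by -0.74 (SE 0.143, adjusted p = 0.0023) and Col8a1 by -3.23 (SE 0.609, adjusted p = 0.00177). Without the mouse block, or with the replicate number as the block, only Col12a1 was called, and the Col5a2 response difference had an adjusted p of 0.224 and 0.0940, the Col6a3 response difference 0.371 and 0.286 and the Col8a1 response difference 0.117 and 0.133. Col6a1 had log2 fold changes of 0.77 and 0.78 in the classes, and its difference of -0.07 had an SE of 0.192. Col13a1, called in endothelial-like and not in stellate-like cells, did not pass this test (0.25, SE 0.137, adjusted p = 0.388).

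In hepatocyte-like cells Col18a1, the chain that made up most of their collagen UMIs, was lower in all 6 anemia mice. It was at 397, 390, 389, 411, 327 and 445 CPM in controls and at 187, 140, 170, 236, 186 and 217 CPM in anemia. Every anemia mouse lay below every control, and the log2 fold change was -1.05 (SE 0.115, adjusted p = 2.46e-06). The groups of 24.8% of all genes tested did not overlap in this class either. The call held in all 24 alternatives. Of 15 chains tested, 6 were called, 1 higher and 5 lower, where 47.9% of all 11208 genes were called, 21.5% higher and 26.4% lower, so the count itself lay near the background. At clustering resolution 1 the class had 19 of 22 chains called, 2 higher and 17 lower, among them Col1a1, Col1a2, Col3a1 and Col14a1, where 55.2% of all genes were called, 27.6% in each direction. There its cluster 16 had stellate as the second class by marker score. The other falls were Col4a5 from 7.75 ± 2.35 to 3.34 ± 1.09, Col4a2 from 14.7 ± 2.22 to 7.14 ± 3.39, Col27a1 from 16.3 ± 2.09 to 8.33 ± 4.22 and Col13a1 from 2.92 ± 1.94 to 0.816 ± 0.701 CPM, and Col12a1 rose from 3.21 ± 0.486 to 5.53 ± 1.64 CPM. With at most 10% mitochondrial UMIs per cell Col18a1 was the 1 chain still called, and the adjusted p of Col4a5 in hepatocyte-like cells was 0.118, of Col4a2 in hepatocyte-like cells 0.172, of Col27a1 in hepatocyte-like cells 0.111 and of Col12a1 in hepatocyte-like cells 0.0694. The call of Col13a1 in hepatocyte-like cells was lost in 8 of 20 alternatives, among them those without control 3 or 5 or anemia 5 or 6. Of the clusters of this class, cluster 20 held 28.1% in controls and 11.8% in anemia, and clusters 21 and 23 held 12.3% and 11.0% in controls and 22.8% and 21.8% in anemia. Summed erythroid markers ranged from 454 to 2316 CPM and from 2438 to 8437 CPM, and their part was not tested.

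Col18a1 rose in smooth muscle-like cells. It was at 195, 136, 399, 218, 266 and 300 CPM in controls and at 520, 906, 699, 694, 527 and 411 CPM in anemia. The groups did not overlap, as in 0.951% of all genes tested, and the log2 fold change was 1.29 (SE 0.225, adjusted p = 0.0213). This was the 1 chain called of 25 tested, where 0.207% of 9669 genes were called. The call was lost in 10 of 24 alternatives for Col18a1 in smooth muscle-like cells, with log2 fold changes of 0.90 to 1.31 in these, among them the omission of control 1, 2, 4 or 5 or of anemia 3 or 4 (adjusted p 0.0516 to 0.0825). In a model of both classes, chosen after the values had been seen, the Col18a1 response of hepatocyte-like cells differed from that of smooth muscle-like cells by -2.26 (SE 0.269, adjusted p = 1.99e-05, where 15.4% of all genes differed) and from that of endothelial-like cells by -1.62 (SE 0.189, adjusted p = 5.83e-07, where 27.6% differed). Other smooth muscle-like chains did not pass in edgeR. Col4a1 was at 1357 and 1961 CPM and Col1a2 at 3588 and 2518 CPM, each without overlap (adjusted p = 0.0841 and 0.145). DESeq2 and limma voom each called 5 chains, Col4a1 and Col4a2 higher and Col1a1 and Col1a2 lower beside Col18a1, where they called 1.74% and 0.535% of all genes, and with at least 50 UMIs Col4a1 and Col1a2 were called beside Col18a1, where 1.8% were. In all, 12 of 25 chains had an unadjusted p under 0.05, where 10.3% of all genes did.

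**Figure D5:**
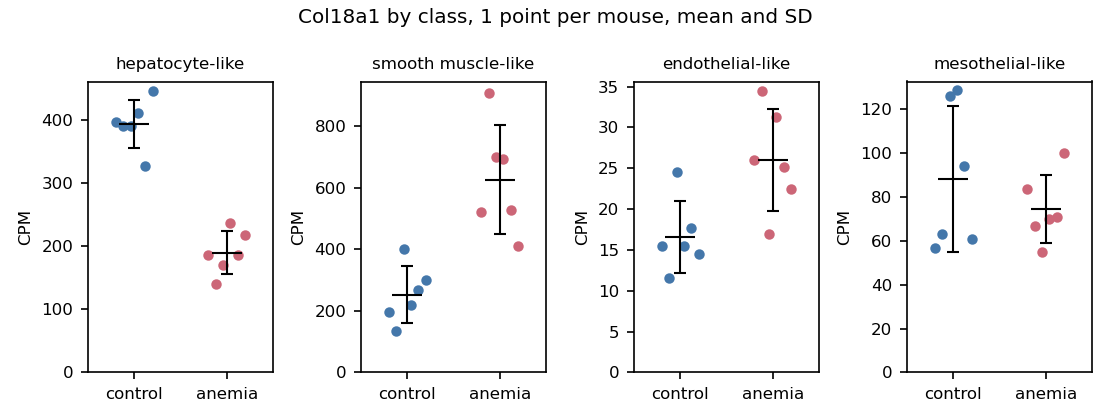
Each point is 1 mouse's Col18a1 level (CPM) in hepatocyte-like, smooth muscle-like, endothelial-like and mesothelial-like cells, with group mean and SD. The hepatocyte-like values of anemia (140 to 236 CPM) all lie below the controls (327 to 445 CPM), and the smooth muscle-like values of anemia (411 to 906 CPM) all lie above them (136 to 399 CPM).

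Fibroblast-like cells, the class with the highest collagen levels, had no chain called in edgeR, though Col25a1 was called there without anemia 3. Of 34 chains tested by edgeR, 0 were called, where 0.279% of 12544 genes were, and 5 had an unadjusted p under 0.05, where 9.45% of all genes did. DESeq2 called 0 and a joint limma voom model over all classes called 9, Col1a2, Col3a1, Col4a1, Col5a1, Col5a3, Col6a1, Col6a2, Col6a3 and Col25a1, where it called 0.93% of 14401 genes. Col3a1 was at 12965 CPM in controls and 14087 CPM in anemia, Col1a1 at 11044 and 11514 CPM, and Col1a2 at 9715 and 10888 CPM. Their log2 fold changes of 0.12, 0.06 and 0.16 had SEs of 0.113, 0.117 and 0.106. In mesothelial-like cells Col6a1 was the 1 chain called of 26, where 0.593% of 10800 genes were called. It ranged from 424 to 610 CPM in controls (median 523) and from 653 to 831 CPM in anemia (median 765), without overlap, as in 1.1% of all genes (log2 fold change 0.54, SE 0.108, adjusted p = 0.033). That call was lost in 12 of 24 alternatives for Col6a1 in mesothelial-like cells. The adjusted p was 0.578 with called doublets left out (log2 fold change 0.48), between 0.0525 and 0.0993 without control 1, 2, 5 or 6 or anemia 3, 5 or 6, and 0.0600 without TMM factors, 0.0576 with the replicate block, 0.0527 with the Y-linked covariate and 0.0990 without anemia 2 and 3. Col12a1 stood there at 26.4 and 52.8 CPM and did not pass (log2 fold change 0.99, SE 0.246, adjusted p = 0.0891).

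Single chains were called in 3 blood cell classes. Col5a3 fell in B-like cells from 14.1 ± 2.27 to 8.80 ± 1.82 CPM without overlap (log2 fold change -0.69, SE 0.164, adjusted p = 0.0412), a call lost in 16 of 23 alternatives for Col5a3 in B-like cells, among them the omission of any 1 of control 1, 3, 4, 5 and 6 and anemia 1, 2, 3 and 5 (adjusted p up to 0.154). It was the 1 call of 14 chains in edgeR, where 1.53% of all genes were called and 1.7% did not overlap. Col18a1 in B-like cells (adjusted p = 0.0836) was called lower by DESeq2 (2.67% of all genes), with called doublets left out, without the filter and without anemia 6, and limma voom (2.2%) called Col16a1 higher, at 0 to 0.747 CPM, in place of Col5a3. Col9a3 fell in macrophage-like cells from 5.69 ± 1.08 to 3.13 ± 0.757 CPM (1 of 22 chains, background 2.42%, lost in 5 of 23 alternatives, those without control 1, 4 or 6 or anemia 3 or 5), and Col13a1 in neutrophil-like cells from 21.5 ± 5.62 to 7.90 ± 3.79 CPM (1 of 12 chains, background 0.914%, lost in 6 of 22 alternatives, those without control 1, 4, 5 or 6 or anemia 3 and limma voom). The make-up of these 3 classes moved as well. In B-like cells cluster 4 held 56.8% of the class in controls and 42.6% in anemia, and cluster 8 held 30.0% and 49.3%. In macrophage-like cells cluster 11 held 39.6% and 21.1% and cluster 13 held 22.2% and 35.8%, and in neutrophil-like cells cluster 12 held 36.5% and 56.2% and cluster 24 held 29.6% and 17.8%. Of neutrophil-like cells 16.0% were called as doublets, and with these left out Col13a1 had too few UMIs there to be tested. The part of these shifts and of doublets in the 3 calls was not tested. Cholangiocyte-like cells, bile duct cells, held the highest Col9a3 level at 48.7 ± 16.7 CPM. They led with Col4a1 at 179 ± 44.9, Col3a1 at 170.1 ± 120 and Col1a1 at 104 ± 71.6 CPM. Col1a1 ranged there from 7.35 to 228 CPM over mice, and 49.0% of these cells were called as doublets. In this class edgeR called 0 of 18 chains (background 0.0296%, 2 at an unadjusted p under 0.05, where 8.97% of all genes had one). It called 0 of 17 chains in pre-B-like cells (background 2.08%, 3 unadjusted against 15.7%), where DESeq2 called Col5a3 (2.8% of all genes) and limma voom Col6a6 (2.47%) and 5 other alternatives, among them the replicate block and called doublets left out, also called Col5a3 (adjusted p = 0.0573 in edgeR), and 0 of 18 in NK-like cells (background 0.0987%, 4 unadjusted against 12.6%), where DESeq2 called Col25a1 (0.881% of all genes). It called 0 of 13 in dendritic-like cells (background 0.863%, 2 unadjusted against 13.5%), where DESeq2 called Col13a1 (1.77% of all genes), as did 3 other alternatives, 0 of 7 in monocyte-like cells (background 1.22%, 0 unadjusted against 16.1%) and 0 of 3 in T-like cells (background 0.132%, 1 unadjusted against 6.35%). In basophil or mast-like cells no chain passed the filter.

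In erythroid-like cells no collagen chain passed the test in edgeR. Of 11 chains tested, edgeR called 0, where 0.611% of 9825 genes were called, and 0 had an unadjusted p under 0.05, where 10.8% of all genes had one. DESeq2 also called 0, and the joint limma voom model called 2 lower, Col23a1 and Col6a5, where it called 6.48% of all genes. Col6a5 had no UMI in erythroid-like cells of any mouse, so its call shows no change. Col23a1, with too few UMIs for edgeR's filter, was at 2.38, 1.25, 1.37, 1.41, 0.565 and 0.947 CPM in controls and at 0.140, 0.292, 0.536, 0.481, 0 and 0.697 CPM in anemia (log2 fold change -1.83, adjusted p = 0.0376 by limma voom). In 5 of 6 anemia mice Col23a1 lay below every control, but these values lie at the floor of counting. In controls 3 and 5 and anemia 1 and 2 it equalled the lowest nonzero value of any chain in the mouse. Control 3 had 219 erythroid-like cells. The make-up of this class moved as well. Cluster 2 held 50.8% of it in controls and 27.7% in anemia, cluster 1 held 23.5% and 36.1%, and cluster 14 held 8.56% and 19.9%. What this contributes was not tested. The summed chains were at 64.1 ± 12.8 CPM in controls and 63.5 ± 21.8 CPM in anemia. Col3a1 was at 11.4 ± 6.00 CPM, Col18a1 at 9.86 ± 5.09 and Col5a1 at 6.84 ± 2.18 CPM. Col5a1 ranged from 3.13 to 9.56 CPM in controls and from 5.75 to 11.0 CPM in anemia, which overlapped (log2 fold change 0.27, SE 0.263, adjusted p = 0.770). The ratio of Col5a1 to Col3a1 UMIs in this class was 0.606, against 0.0698 to 0.159 in the B-like, NK-like, T-like, dendritic-like, macrophage-like, monocyte-like and pre-B-like classes and 0.219 in stellate-like cells. Other classes are not in this comparison, and a ratio above that of these blood cell classes is not particular to erythroid-like cells. In endothelial-like cells Col5a1 ranged from 3.48 to 6.09 CPM and Col3a1 from 6.96 to 23.1 CPM over mice. There too Col5a1 was high beside Col3a1, except in control 3. Col5a1 had a UMI in 0.478% of control and 0.734% of anemic erythroid-like cells and in 0.162% and 0.186% of T-like cells. In cells thinned to 1000 UMIs the erythroid-like shares were 0.243% and 0.228%, with 3548 and 5813 shallower cells left out. The T-like shares are as measured, in deeper cells. T-like cells had 2371 and 2814 UMIs per cell on average, erythroid-like cells 1335 and 1773. Summed stellate markers there ranged from 30.5 to 96.6 CPM in controls and from 25.4 to 54.6 CPM in anemia.

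In the sums of whole libraries, which do not depend on the naming of cells but in which fewer cells of a type and less RNA per cell cannot be told apart, 3 of 42 chains were called, all lower, where 6.92% of 21187 genes were called and 3.75% were lower. Col9a3 ranged from 6.43 to 9.75 CPM in controls and from 3.08 to 4.83 CPM in anemia (log2 fold change -0.88, SE 0.128, adjusted p = 0.00211). Col17a1 ranged from 2.42 to 3.55 CPM and from 0.697 to 1.62 CPM (-1.25, SE 0.183, adjusted p = 0.00212). Col25a1 ranged from 8.38 to 16.2 CPM and from 2.35 to 7.75 CPM (-1.05, SE 0.280, adjusted p = 0.041). None of these 3 overlapped between groups, as in 5.64% of all genes tested, and Col25a1 in whole libraries lost its call in 12 of 21 alternatives. Each of the 3 was also lower in endothelial-like or stellate-like cells. Col25a1 was next highest in pre-B-like cells, at 25.7 CPM, where edgeR did not call it. The share of pre-B-like cells fell from 15.4% to 7.98% of kept cells, and its part in the whole-library fall was not tested. Type I and III chains were spread widely over mice. Col3a1 ranged from 164 to 1042 CPM over the 12 libraries and did not pass (445 CPM in controls, 550.1 CPM in anemia, adjusted p = 0.676). With anemia 2 and 3 left out, 15 chains were called, 11 higher and 4 lower, where 13.3% of all genes were called, 8.15% higher and 5.11% lower. In all, 6 chains were tested in no class, 4 of them among the 42 of whole libraries, with 39 UMIs of Col9a1, 56 of Col6a4, 65 of Col10a1, 68 of Col22a1, 338 of Col26a1 and 407 of Col28a1 in all cells.

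Genes that fold, process, bind and break down collagen were described from a list of 72, of which 65 were tested in stellate-like cells, with 12 called higher and 3 lower, where 3.77% of all genes were higher and 2.85% lower. Of 17 folding and modification genes 4 rose there and 1 fell. These were the lysyl hydroxylases Plod1 (117 to 181 CPM, log2 fold change 0.62) and Plod2 (74.5 to 140 CPM, 0.97), the prolyl 4-hydroxylase subunit P4ha2 (12.4 to 20.7 CPM, 0.81) and the prolyl 3-hydroxylase P3h2 (67.9 to 96 CPM, 0.55), while the collagen galactosyltransferase Colgalt2 fell (26.4 to 16.1 CPM, -0.56). The call of Colgalt2 in stellate-like cells, with an adjusted p of 0.0446, was lost in 17 of 28 alternatives (adjusted p up to 0.574), among them those without any 1 of control 1, 2, 4, 5 and 6 and anemia 1, 2, 3, 4 and 5, with limma voom and with called doublets left out. Of the crosslinking genes the lysyl oxidase Loxl2 rose from 138 to 223 CPM (0.72, adjusted p = 0.000109). Among receptors the integrin chain Itga2 rose (22.4 to 39.6 CPM, 0.80), among basement membrane partners the laminin chain Lama4 (102 to 149 CPM, 0.56), and among fibril partners dermatopontin, Dpt (0.904 to 5.75 CPM, 2.74). Dpt was also a leading gene of the fibroblast-like cluster. Of the genes of breakdown the protease inhibitors Timp1 (2.85 to 12.6 CPM, 1.86) and Timp3 (292 to 538 CPM, 0.87), the protease Fap (22.8 to 43.6 CPM, 0.86) and the macrophage elastase Mmp12 (1.04 to 10.5 CPM, 3.84) rose. The gelatinase Mmp2 fell from 189 to 92.7 CPM (-0.93) and the inhibitor Timp2 from 124 to 88.1 CPM (-0.48). Timp3 in stellate-like cells gave -0.0035 in cluster 38 alone and lost its call there. Lama4 in stellate-like cells lost its call in 6 of 28 alternatives, without control 4 or 6 or anemia 1 or 5 among them (adjusted p up to 0.0714), and Mmp12 in stellate-like cells in 7 of 21, without control 3, 4, 5 or 6 among them (adjusted p up to 0.108). With called doublets left out 9 of these genes were called, where 4.61% of all genes were, and in cluster 38 alone 5, where 2.18% were. Of the cells of this class 49.3% were called as doublets. The part of cells of other classes in the calls of Dpt and Mmp12 was not tested.

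In endothelial-like cells 66 of the 72 genes were tested, with 18 called higher and 5 lower, where 7.93% of all genes were higher and 10.5% lower. The split was 14 and 9 without TMM factors. Of 17 folding genes 7 rose and none fell, led by P3h2 (16.2 to 42.2 CPM, log2 fold change 1.38, adjusted p = 3.94e-05) and Plod2 (22.4 to 50.7 CPM, 1.19), followed by P4ha2 (0.60), Plod3 (0.43) and Plod1 (0.39). Lox (2.16 to 4.63 CPM, 1.14), the propeptide protease Tll1 (1.01), Loxl2 (85.6 to 126 CPM, 0.56) and the enhancer of propeptide removal Pcolce (0.54) rose, and Loxl3 fell (-0.60). Fibronectin, Fn1 (22.8 to 49.1 CPM, 1.11), and Sparc, a collagen chaperone of the matrix (1609 to 2451 CPM, 0.61), rose, and tenascin X, Tnxb, fell (-0.60). The integrin chains Itga2 (0.70) and Itga1 (270 to 428 CPM, 0.66) rose, whereas Itga10 (-0.68) and the collagen receptor Ddr2 (-0.46) fell. Timp1 (1.66) and Timp3 (0.75) rose, Timp2 (-0.41) fell, and the basement membrane partner Nid1 rose (337 to 405 CPM, 0.27). The call of Ddr2 in endothelial-like cells was lost in 11 of 23 alternatives (adjusted p up to 0.405), among them DESeq2, limma voom, called doublets left out and the omission of control 1, 4 or 6. Tll1 in endothelial-like cells lost its call in 11 of 22 (without control 1, 4, 5 or 6 or anemia 1, 4 or 6 among them), Tnxb in endothelial-like cells in 9 of 24 (without control 1, 2, 4 or 6 or anemia 1 or 2) and Timp2 in endothelial-like cells in 6 of 24 (without control 4 or 6 or anemia 6), with Timp2 turned to 0.13 at clustering resolution 1. P3h2, Plod1, Plod2, P4ha2, Loxl2, Itga2, Timp1 and Timp3 passed in both classes as higher and Timp2 as lower, whose libraries are the same. Of stellate-like cells 49.3% were called as doublets, and with these left out fewer genes of the list were called there. Timp3 in stellate-like cells also lost its call in cluster 38 alone. The stellate-like sums held endothelial markers about as high as stellate markers. The part of doublets in the shared calls was not tested. In fibroblast-like cells edgeR called 0 of 65 genes of the list (14 with an unadjusted p under 0.05), where 0.279% of all genes were called. In hepatocyte-like cells 0 of 34 were higher and 11 lower, where 21.5% of all genes were higher and 26.4% lower. In whole libraries 2 of 72 were higher, Mmp12 (1.51) and Timp1 (1.33), where 3.17% of all genes were higher, and the call of Mmp12 in whole libraries was lost in 9 of 21 alternatives, those without any 1 control among them.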

How the data were processed

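Livers of 6 control and 6 anemia pups gave 1 single-cell library each, and the labels give all 12 the same batch. The authors deposited UMI counts per gene and barcode, made with Cell Ranger on mm10 per the labels, without normalization. Whether doublets or background RNA were removed before deposit is not given in the sources used here. Barcodes with 500 to 50000 UMIs were kept unless over 50% of the UMIs were mitochondrial. From 2000 variable genes without collagen chains, 20 components and 20 neighbours, Leiden clusters were made at resolution 2 (leidenalg 0.10.2, igraph 0.11.9). A cluster took the class with the highest marker score where at least 3 of its markers were raised 4-fold or more, and was left unnamed where more markers of another class than of its own, by the same lists, stood among its 10 leading genes (12 clusters) or where leading genes went against the name, as decided after they had been seen (1 cluster). Cluster 68, with 163 macrophage-like cells, of which 82.8% were called doublets, kept its name at 1 macrophage and 1 neutrophil marker, although neutrophil genes outside the lists (Stfa2, Stfa3, Mmp8) also led it. Some named clusters scored within 0.2 of a second class. That left 14356 cells unnamed, and the authors' cell names were not used. Doublets were called at 0.8% per 1000 barcodes with 50 neighbours and kept.

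Counts were summed per mouse and class and tested with edgeR 4.0.16 (TMM, quasi-likelihood) in R 4.3.3, for genes that averaged 5 or more UMIs per mouse, without mitochondrial and ribosomal protein genes, and adjusted by Benjamini-Hochberg over all genes tested. The script was tested on simulated data. DESeq2 1.42.0 and limma 3.58.1 (voom) served as alternatives. Python 3.11.15, numpy 2.4.6, scipy 1.17.1, pandas 2.3.3 and matplotlib 3.10.9 did the rest. Named chains were those with at least 50 CPM in stellate-like or endothelial-like cells, those called in any class, and the 3 highest of each other class. Pathway genes were named where called, at most 5 per role and class. Members, gene lists and tests were chosen with earlier results of these data known. At these depths a UMI count of 0 does not show absence. With 6 mice per group, p-values set the group difference against the variation between libraries, 1 per pup. That variation also holds differences in cell recovery.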

Additional observations from a re-analysis of the deposited data

Results flagged for a closer look

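Of 50 groups of 6 mice screened for a value set apart from the others by Dixon's ratio at its 95% critical value, 3 were found, and chance alone gives about 1 in 20 groups. In stellate-like cells Col6a1 was highest among controls in control 3, at 217 CPM with the nearest value at 170 CPM, and lowest among anemia mice in anemia 3, at 135 CPM with the nearest at 264 CPM. Anemia 3 had 28 stellate-like cells. In endothelial-like cells Col17a1 was highest among anemia mice at 11.3 CPM, with the nearest value at 5.51 CPM.

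For 4 chains the response to anemia differed between stellate-like and endothelial-like cells by the interaction test, with log2 differences (stellate-like minus endothelial-like) of 2.51 for Col12a1, -0.61 for Col5a2, -0.74 for Col6a3 and -3.23 for Col8a1. The Col18a1 response of hepatocyte-like cells differed by -1.62 from that of endothelial-like cells and by -2.26 from that of smooth muscle-like cells.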

How the results depend on the processing

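Of 1816 values of single genes under an alternative, 1567 kept their direction and their side of the threshold, 244 kept the direction and lost the call, and 5 turned. These 5 were Col18a1 in endothelial-like cells at -0.19 with the chains among the clustering genes, Timp2 in endothelial-like cells at 0.13 at clustering resolution 1, Timp3 in stellate-like cells at -0.0035 in cluster 38 alone, and Timp2 in stellate-like cells at 0.68 and Col8a1 in stellate-like cells at 0.78 with fibroblast-like, smooth muscle-like and mesothelial-like cells added. The counts of calls below stand without the share of all genes called, so they show only how the calls depend on a setting. The 7 stellate-like calls became 4 with a filter of 50 UMIs, 23 with those 3 classes added, 1 with called doublets left out (2 without anemia 3) and 3 in cluster 38 alone (4 without anemia 3). With those 3 classes added, the sums also follow the mix of classes, whose part was not tested. The 11 calls of the other classes became 19 with DESeq2, 6 with 50 UMIs, 4 with at most 10% mitochondrial UMIs, 23 with limma voom and 23 at resolution 1. The 0 erythroid-like calls became 2 with limma voom, which tests the same genes in every class and called Col6a5 at 0 UMIs, and no chain reached 50 UMIs there. The 3 calls of whole libraries became 7 without TMM factors, 6 with DESeq2 and 15 without anemia 2 and 3. The 4 interaction calls became 2 with 50 UMIs and 1 without the mouse block. The 15 pathway calls in stellate-like cells became 9 without called doublets and 5 in cluster 38. The fall in the stellate-like share, 1.29 percentage points, was -0.934 and not significant with the 3 classes added (exact p = 0.485). Leaving out 1 mouse at a time gave 5 to 8 chains in stellate-like, 9 to 13 in endothelial-like, 0 in erythroid-like cells, 6 to 13 in the other classes, 2 to 4 in whole libraries and 4 to 6 in the interaction, 10 to 15 pathway genes in stellate-like and 18 to 25 in endothelial-like cells, and a share difference of -1.48 to -1.09. Equal replicate numbers did not pair the mice throughout: the correlations of their deviations ran from -0.361 to 0.694. For control 4, however, anemia 4 was the best match in each sum checked. These were whole libraries (0.694) and stellate-like (0.356), endothelial-like (0.555) and erythroid-like cells (0.425). With the replicate number as a block, 7 stellate-like, 13 endothelial-like, 0 erythroid-like, 9 other and 3 whole-library chains and 1 interaction were called, with 14 and 21 pathway genes and an exact p of 0.031 for the share. Runs without anemia 2 and 3, in cluster 38 alone or with doublets and anemia 3 left out were chosen after seeing the data. The causes were not tested. Depth limits the small classes most: basophil or mast-like cells numbered 27 to 78 per mouse and stellate-like cells 28 to 479.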

Other observations

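Some chains were highest in mesothelial-like, smooth muscle-like or fibroblast-like cells. In mesothelial-like cells Col6a5, a type VI chain, stood at 76.8 ± 31.4 CPM, against 37.3 ± 12.7 in fibroblast-like cells, and Col11a1, a fibrillar chain of cartilage and developing connective tissue, at 54.3 ± 21.1 against 40.6 ± 18.3 CPM, which overlapped. Col19a1, a FACIT chain, stood at 48.9 ± 28.0 CPM in smooth muscle-like cells and at 1.87 ± 1.27 CPM in NK-like cells, the class next to it. Col8a1 was at 109 ± 79.0 CPM in fibroblast-like cells and at 9.93 ± 11.8 CPM in smooth muscle-like cells. Col7a1, the anchoring fibril chain, was at 20.1 ± 7.37 CPM in fibroblast-like cells and at 1.46 ± 1.43 CPM in mesothelial-like cells.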
